A study of Mus musculus with 9 samples.

Results

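Of the 19935 genes with a probe set of their own on these arrays, 9 genes of cortical glutamatergic neurons are described here: Tbr1, Emx1, Neurod1, Neurod2, Neurod6, Slc17a7, Cck, Nrn1 and Vxn. They were chosen by name, with earlier results of these arrays known, as a measure of the cortical tissue on each array. Each had 1 probe set, and 8 of the 9 passed the filter on low values; Neurod1 did not. RNA came from mouse striatum. Controls received 4 saline injections 2 h apart and were sampled after 1 week. The acute group received 4 intraperitoneal injections of MPTP 2 h apart, each of 20 mg/kg, and was sampled after 1 week. The chronic group received 4 mg/kg of MPTP once a day for 20 days, with sampling at 8 weeks. Both MPTP groups received 80 mg/kg in total, so the chronic group differed from the others in regimen and in time together. MPTP is a toxin whose metabolite enters dopamine neurons through their dopamine transporter. Each group had 3 arrays; the labels used here give no strain, sex or age. They also do not tie each array to its own animal, so the p-values speak only to the spread between these arrays, which may be technical.

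Excitatory neurons of the cerebral cortex arise from progenitors of the dorsal forebrain, where the homeobox factor Emx1 is made. Their daughters switch on the basic helix-loop-helix factors of the Neurod family and, in early-born deep-layer and subplate neurons, the T-box factor Tbr1. Mature cells load glutamate into vesicles with the transporter Slc17a7 (VGLUT1). Striatal projection neurons come from the ventral forebrain and use GABA, so the striatum holds the axon terminals of cortical neurons but few of their cell bodies. The cortex, the claustrum and the endopiriform nucleus lie directly beside it.

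The genes of the labelled tissue were high on all 9 arrays. Ppp1r1b (DARPP-32, a phosphatase inhibitor of striatal projection neurons) lay between log2 11.44 and 12.31, Drd1 between 10.01 and 11.12 and the enkephalin precursor Penk between 13.16 and 13.56. The arrays nonetheless stood apart in the cortical genes before any comparison of groups. Control 1, acute 1 and acute 2 were the 3 highest arrays for 8 of the 9 genes, Neurod1 being the exception. Of all 16335 probe sets tested, 5.15% had the same 3 arrays on top. The 3 arrays were named from these genes' own values, so the count is a description and no test. Each comparison is given over all arrays and without these 3.

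Among the transcription factors, Tbr1 ran over the widest range. The controls had log2 intensities of 9.89, 7.06 and 7.08, the acute group 9.12, 9.65 and 6.47 and the chronic group 7.27, 7.04 and 5.69. Control 1, acute 1 and acute 2 lay at least 1.86 above every other array, and chronic 3 was lowest, under the log2 level of 5.89 used as the filter on low values. Neurod6, a factor kept on in mature pyramidal neurons, lay at 8.45, 5.78 and 5.13 in controls, 7.60, 7.83 and 4.95 in the acute group and 5.78, 5.78 and 5.33 in the chronic group. The 3 high arrays were again set off, by 1.82, while the other 6 all lay under 5.89, the level used as the filter, so the gene passed that filter through its 3 high arrays. Control 2, chronic 1 and chronic 2 had an identical value of 5.78001, and the sources used here do not say why. Neurod2, which acts in maturing cortical neurons, lay at 8.92, 7.20 and 7.00 in controls, 8.40, 8.56 and 7.04 in the acute group and 7.65, 7.51 and 7.20 in the chronic group. Its range was smaller, 3.78-fold from highest to lowest, with a gap of 0.75 below the 3 high arrays.

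The other 2 factors varied less. Emx1 lay at 7.41, 6.94 and 6.73 in controls, 7.49, 7.48 and 7.08 in the acute group and 7.34, 7.16 and 6.75 in the chronic group. Its whole range was 1.69-fold, and its 3 highest arrays stood only 0.07 above chronic 1. Neurod1, the family member of earlier differentiation, had a mean of 5.81 and lay at 6.48, 5.55 and 6.39 in controls, 5.61, 5.91 and 5.89 in the acute group and 5.29, 5.50 and 5.69 in the chronic group. Control 1 and control 3 were its highest arrays, and the 3 chronic arrays lay below control 1, control 3 and both of acute 2 and acute 3.

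Most of these genes shared their 3 highest arrays, though not the order within them or the lowest array. Whether the sequences before their starts bear on this was not tested. Those of 3 genes are shown for the letters that the factors of this group can bind. Each is the 250 bases before the annotated start in RefSeq, mouse build GRCm38.p6, read along the gene's strand from 5′ to 3′. Capitals mark CANNTG, the E-box recognised by Neurod factors with their partners, and TAATTA, a core letter run of homeobox factors. Tbr1 is at chr2:61804203-61804452 on the plus strand, Neurod2 at chr11:98329646-98329895 on the minus strand and Cck at chr9:121495695-121495944 on the minus strand.
Tbr1: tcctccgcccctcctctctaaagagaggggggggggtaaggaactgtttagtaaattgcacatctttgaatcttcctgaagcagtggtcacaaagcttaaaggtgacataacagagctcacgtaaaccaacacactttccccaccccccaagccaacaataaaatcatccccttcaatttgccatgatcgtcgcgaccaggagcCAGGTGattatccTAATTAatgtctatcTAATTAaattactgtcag
Neurod2: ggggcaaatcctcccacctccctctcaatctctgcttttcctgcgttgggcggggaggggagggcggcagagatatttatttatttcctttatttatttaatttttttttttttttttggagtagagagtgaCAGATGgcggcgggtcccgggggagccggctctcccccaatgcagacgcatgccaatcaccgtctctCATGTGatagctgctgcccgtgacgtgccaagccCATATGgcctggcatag
Cck: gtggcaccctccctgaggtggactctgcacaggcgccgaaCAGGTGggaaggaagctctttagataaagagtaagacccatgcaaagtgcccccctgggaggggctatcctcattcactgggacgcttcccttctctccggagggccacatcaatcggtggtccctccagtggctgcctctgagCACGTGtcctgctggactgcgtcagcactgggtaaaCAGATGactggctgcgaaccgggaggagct
The RefSeq table held promoters of 7 of the 9 genes, Vxn and Nrn1 not being among them. CANNTG occurred in 7 of these 7, and in 66.2% of all 32851 promoters over the same 250 bases. CAGATG, a form of CANNTG that Neurod factors favour, was searched on both strands and was present in 2 of 7, Neurod2 and Cck, against 14.4% of all promoters. TAATTA occurred in Tbr1 alone, at 33 and 18 bases before the start, and in 4.84% of all promoters. AGGTGT, part of the T-box half-site, occurred on either strand in Neurod6 alone and in 11.8% of all promoters. CAGCTG, another form of CANNTG, occurred in 0 of 7 and in 13% of all. The sequences printed are those with CAGATG or TAATTA, and the others of the 7 had neither. A match is a run of letters and not a shown site.

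Slc17a7, the vesicular glutamate transporter of cortex and hippocampus, followed Tbr1 closely. The controls had log2 intensities of 12.27, 9.49 and 8.72, the acute group 11.75, 12.28 and 8.84 and the chronic group 9.66, 9.60 and 8.14. The gap of 2.09 between acute 1 and the next array was the largest among the 9 genes, and the whole range was 17.7-fold. Vxn, which encodes vexin, a small protein studied in the neurogenesis of the frog Xenopus, lay at 11.37, 8.40 and 8.26 in controls, 10.79, 10.68 and 8.14 in the acute group and 9.25, 8.16 and 7.45 in the chronic group. It too was high on the same 3 arrays and lowest on chronic 3, with a range of 15.2-fold.

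The secreted and surface products differed in their lower arrays. Cck, the precursor of the neuropeptide cholecystokinin, lay at 10.80, 9.35 and 9.77 in controls, 10.57, 11.01 and 9.36 in the acute group and 9.13, 8.46 and 8.77 in the chronic group. All 3 chronic arrays lay below all 6 others, while control 1, acute 1 and acute 2 were still the highest. Nrn1, or neuritin, an activity-regulated protein anchored to the neuronal surface that promotes the growth of neurites, lay at 9.86, 7.57 and 9.34 in controls, 9.49, 9.47 and 8.54 in the acute group and 7.65, 7.22 and 7.65 in the chronic group. Control 3, which was low in Tbr1 and Slc17a7, stood only 0.14 below the 3 high arrays in Nrn1, and acute 3 came next. Control 2 was the only array outside the chronic group with a value in the chronic range.

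**Figure D1:**
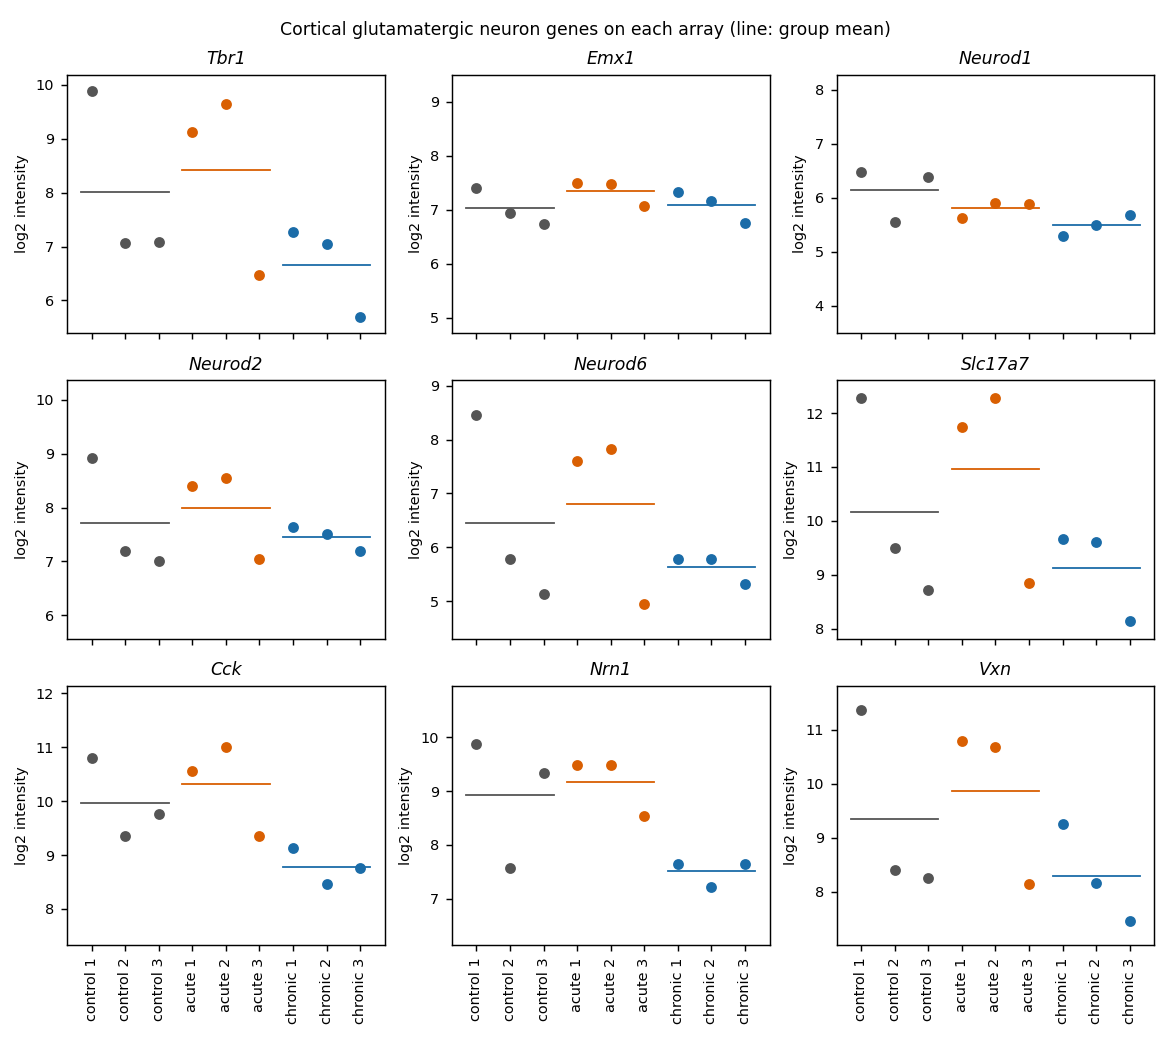
Log2 intensity of each of the 9 genes (y axes, each spanning 4.8 log2 units) on each array (x axes), with points coloured by group (control grey, acute orange, chronic blue) and a line at the group mean. Control 1, acute 1 and acute 2 stand above the other arrays in Tbr1, Neurod6, Slc17a7 and Vxn, whereas the 3 chronic arrays of Cck lie between 8.46 and 9.13, below all others.

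The spread, over all 9 arrays and within groups, was larger for these genes than for the median probe set. The genes were chosen with earlier results of these arrays known, so this is a description and no test. Of the 9, 4 (Tbr1, Slc17a7, Vxn and Neurod6) ranged over at least 3 log2 units across the 9 arrays. Of all probe sets tested 0.122% did so, and the median range was 0.50. Neurod6 passed the filter only through its 3 high arrays. The standard deviation within groups was 1.45 for Tbr1, 1.60 for Slc17a7, 1.43 for Vxn and 1.38 for Neurod6, against a median of 0.16 over all probe sets. It was 0.79 for Neurod2, 0.77 for Nrn1, 0.68 for Cck, 0.33 for Neurod1 and 0.30 for Emx1. The groups accounted for 57.7% of the sum of squares of Cck, 57.3% of that of Nrn1 and 48.8% of that of Neurod1, and for 10.7% to 28.5% in the other 6 genes. Part of a sum of squares lies between groups even with no group effect. The share over all probe sets is not given here, so none of these is read as large or small.

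Other cortical genes, none of them among the 9, showed the same arrays on top in some layers and not in others. In each of 4 lists the genes were counted whose 3 highest arrays were control 1, acute 1 and acute 2, a pattern held by 5.15% of all probe sets. It was held by 0 of 9 tested genes of the upper layers, 2 of 11 of layer 5, 8 of 13 of layer 6 and the subplate and 9 of 13 expressed by excitatory neurons of several layers. In the upper-layer list Rorb, Lamp5, Pou3f3 and Lhx2 each ranged over 0.51 to 1.02, with a different array highest in each. In layer 6, Ccn2 (connective tissue growth factor, a marker of subplate neurons) lay between 9.67 and 10.43 in these arrays and between 7.95 and 9.28 in the others, and Hs3st4, a heparan sulfate sulfotransferase, at 9.65 to 9.67 against 8.95 to 9.41. Syt6 and Tle4, which the striatum also expresses, did not follow; their highest array was chronic 3, at 10.14 and 10.48. In layer 5 the genes of highest mean, Etv1, Parm1, Pcp4 and Tox, did not follow. Their highest arrays were control 2, control 3, chronic 1 and control 3. Fezf2 and Rprm were singled out after their values were seen. Fezf2, the selector of subcerebral projection neurons, was 1 of the 2 layer 5 genes with the pattern. It lay at 9.50, 8.57 and 9.19 on control 1, acute 1 and acute 2 against 7.15 to 7.97 elsewhere. Rprm, a marker of layer 6, lay at 9.69, 8.92 and 9.68 on them against 7.51 to 8.50.

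Among genes of excitatory neurons of several layers, the vesicle protein Sv2b lay at 12.38, 12.05 and 12.12 on control 1, acute 1 and acute 2, against 11.29 to 11.54 elsewhere, and the factor Mef2c at 10.96, 10.54 and 10.68 against 9.96 to 10.52. Lmo4 and Camkv did not hold the pattern: chronic 2 reached 11.02 in Lmo4, above acute 1, and control 2 reached 11.73 in Camkv. In the list of claustrum, endopiriform nucleus and basolateral amygdala, 3 of 6 genes had these arrays on top. Nr4a2, a nuclear receptor made in the claustrum and the subplate, lay at 10.11, 10.68 and 10.76 on them and between 6.94 and 9.11 on the others. Synpr, a synaptic vesicle protein, lay at 9.28, 9.69 and 9.36 against 8.79 to 9.21, while Gnb4 and Lypd1 had another order.

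**Figure D2:**
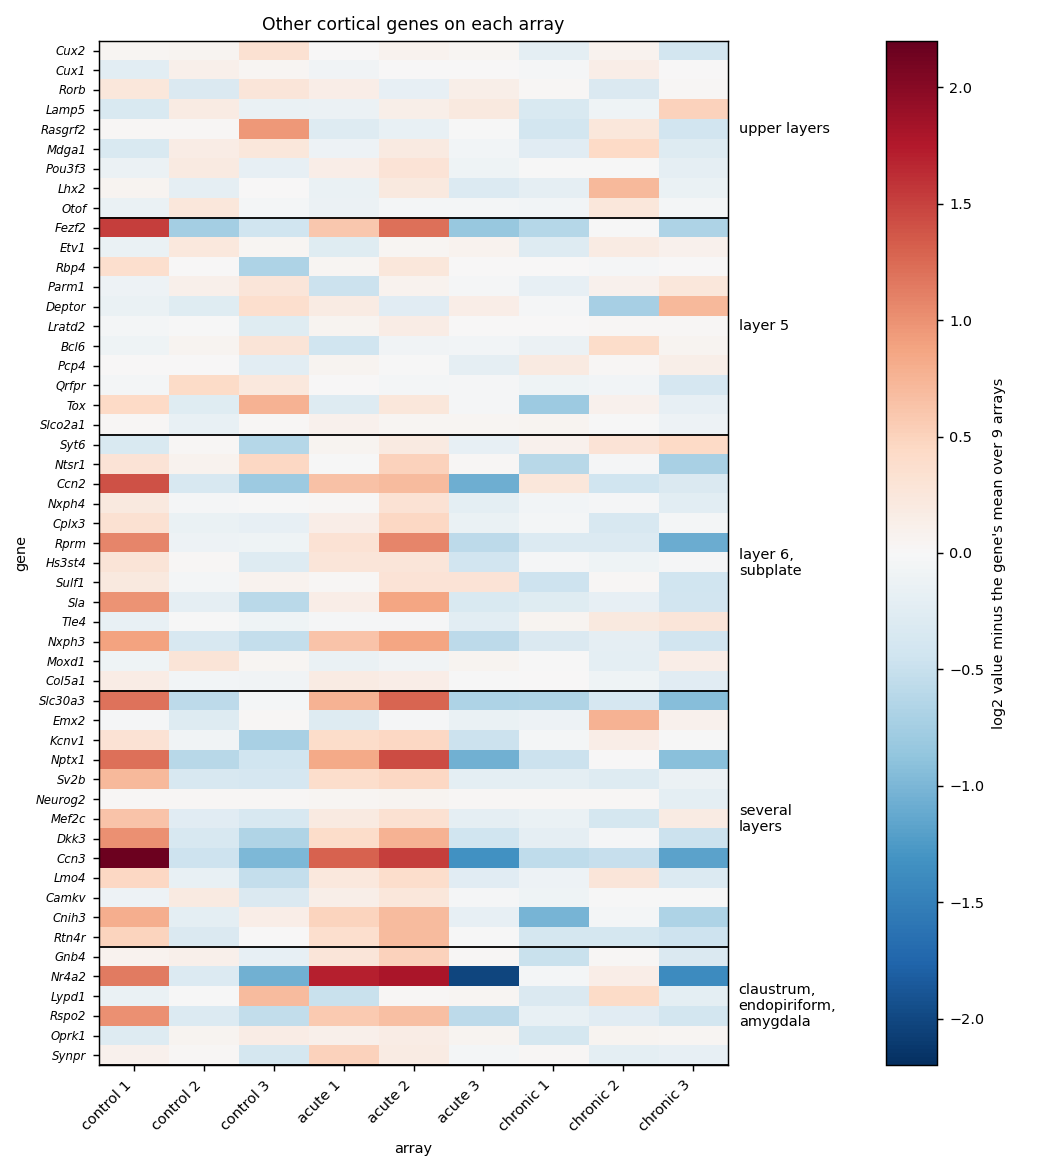
Log2 value minus the gene's own mean over 9 arrays (colour) for the tested genes of 4 cortical lists and of the claustrum, endopiriform and amygdala list (rows) on each array (columns). Red on control 1, acute 1 and acute 2 marks 9 of 13 genes of several layers and 8 of 13 of layer 6 and the subplate, and 0 of 9 of the upper layers, as counted by those arrays being the 3 highest.

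Among relatives and partners of the 9 genes, 1 of 11 tested had these arrays on top. It was Cckbr, the cholecystokinin receptor of cortex, at 9.58, 8.90 and 9.56 against 7.98 to 8.53. Cckar, the other receptor, ran the other way, from 6.27 on control 1 to 7.63 on control 3. The helix-loop-helix partner Tcf4 stayed between 10.49 and 10.86, and Auts2 and Reln were highest on chronic 3. Bcl11a was highest on acute 2 (10.41) and control 1 (10.14), with control 2 (10.10) above acute 1 (10.03). Of 12 genes of glutamate transport and synthesis 0 had the pattern. Slc17a6, the transporter of thalamic neurons, was highest on control 3 (10.59) and acute 3 (9.43), and the glial genes Slc1a2 and Glul and the transaminases Got1 and Got2 ranged over at most 0.33. The hippocampal list held 0 of 7 with the pattern, and the list of cortical interneurons 1 of 12, Vip, at 7.47, 6.90 and 6.96 against 5.52 to 6.19. The interneuron genes of highest mean, Sst, Gad1, Calb2 and Cxcl14, did not hold it, and Gad1 had these arrays as its lowest. With each gene centred over the 9 arrays, the mean of the interneuron list was -0.14 on control 1, -0.27 on acute 1 and -0.11 on acute 2.

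Lists of other tissue moved with other arrays. The mean of the thalamus and septum list, with each gene centred over the 9 arrays, reached 1.46 in control 3 and 0.83 in acute 3, with the remaining arrays at -0.75 to 0.12. The choroid plexus mean reached 0.90 and 1.68 in the same arrays, with the remaining ones at -0.67 to 0.10. The mean of 19 genes of striatal projection neurons was lowest in control 1 (-0.49) and control 3 (-0.44), the others lying from -0.02 to 0.36. For control 1 this went with the highest cortical level, for control 3 it did not. Means of the oligodendrocyte, astrocyte, microglial and vascular lists lay between -0.49 and 0.30 on every array. In bulk tissue, fewer cells of a type and less RNA per cell cannot be told apart.

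**Figure D3:**
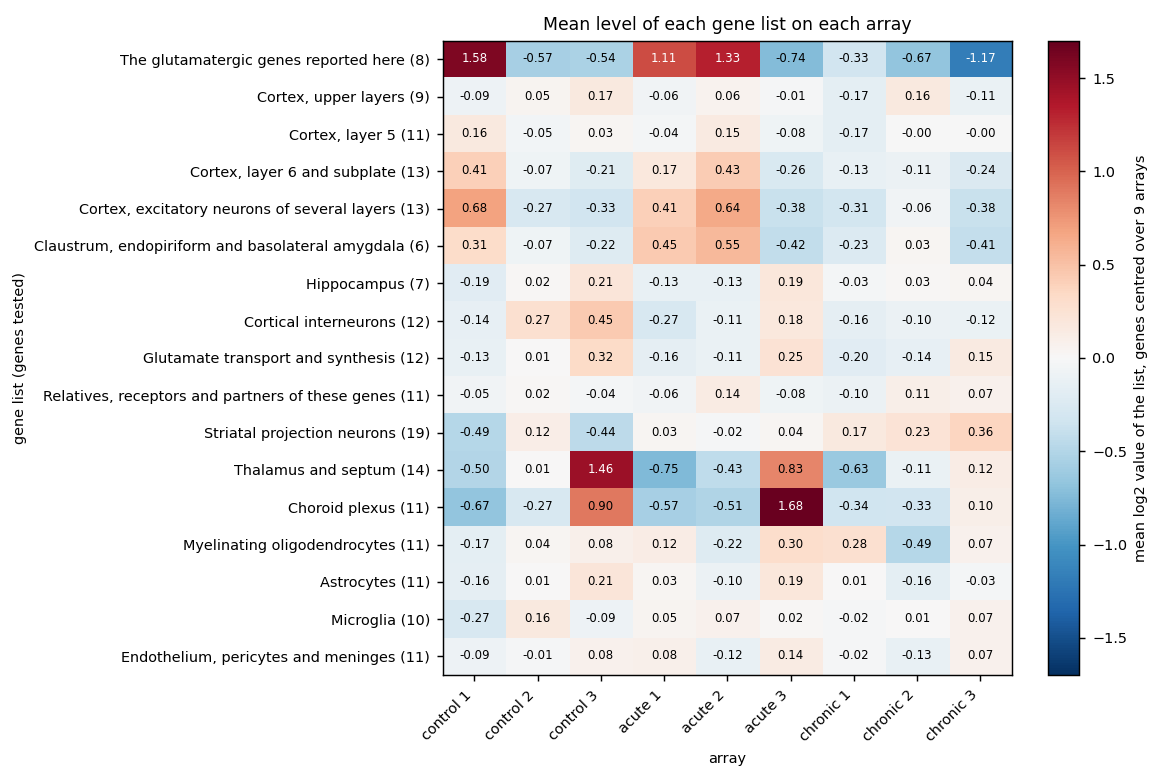
Mean log2 value of each gene list (rows, with the number of genes tested) on each array (columns), after centring each gene over the 9 arrays. The 8 tested genes described here reach 1.58 on control 1, 1.11 on acute 1 and 1.33 on acute 2, and the thalamus and choroid plexus lists peak on control 3 and acute 3.

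At 1 week after acute MPTP, 8 of the 9 genes had a higher mean than in controls, and none passed the test. The difference was 0.79 ± 1.06 (log2, standard error, 3 arrays a group) for Slc17a7, 0.52 ± 0.95 for Vxn, 0.40 ± 0.96 for Tbr1 and 0.34 ± 0.91 for Neurod6. It was 0.34 ± 0.46 for Cck, 0.32 ± 0.21 for Emx1, 0.29 ± 0.53 for Neurod2 and 0.24 ± 0.51 for Nrn1, and Neurod1 was 0.33 lower (5.81 against 6.14 in controls). In limma 0 of the 8 tested genes passed at an adjusted p of 0.05 (adjusted p = 1 for all 8), 0 had an unadjusted p under 0.05, and over all probe sets 0% passed. Over all probe sets an unadjusted p under 0.05 was reached in 0.416% in the higher and 0.435% in the lower direction. All 8 tested genes lay above 0, where 51.5% of all probe sets lay above and 48.4% below. The groups overlapped in all 8, and did not in 2.06% (higher) and 1.49% (lower) of all. The acute group holds 2 of the 3 arrays high in cortical genes and the controls 1. Without them acute 3 alone remained against control 2 and control 3, and the median of the 9 genes was -0.19 in place of 0.34. Those arrays were picked for being high in the 8 tested genes, and 2 of them are acute. A lower value in those genes is favoured by the choice, and nothing is read from it. Neurod1, which did not share these highest arrays, went from -0.33 to -0.08. With the mean of 45 other cortical genes as a covariate the median was 0.13. Without control 3 the median was -0.02. With the replicate number as a block 1 of the 8 genes, Emx1, had an unadjusted p under 0.05, as did 687 of all probe sets, and 0 passed the adjusted test.

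At 8 weeks after chronic MPTP, 8 of the 9 genes had a lower mean than the 1-week controls, again without passing the test. Nrn1 was 2.67-fold lower (log2 -1.42 ± 0.51, 95% interval -2.58 to -0.25) and Cck 2.28-fold lower (-1.19 ± 0.46, -2.22 to -0.15), with adjusted p = 0.876 and 0.898 in limma. Tbr1 differed by -1.34 ± 0.96, Vxn by -1.06 ± 0.95, Slc17a7 by -1.03 ± 1.06, Neurod6 by -0.82 ± 0.91, Neurod2 by -0.25 ± 0.53 and Emx1 by 0.06 ± 0.21. Neurod1, tested only without the filter, differed by -0.65 ± 0.24 (adjusted p = 0.956). Of the 8 tested genes 0 passed, as did 0% of all probe sets, and 2, Nrn1 and Cck, had an unadjusted p under 0.05 in the lower direction, as did 2.66% of all, with 2.85% in the higher direction. With the replicate number as a block the same number, 2, did so, against 2128 of all probe sets, and 0 passed (lowest adjusted p = 0.29). Of the 8, 7 lay below 0 and 1 above, against 53.2% and 46.7% of all. The groups did not overlap in Cck, the only one of the 8, where 3.67% of all probe sets lay lower and 2.88% higher without overlap. Its highest chronic array was at 9.13 and its lowest control at 9.35.

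Control 1 was the highest control array in all 9 genes, so leaving it out must raise each difference from control, and the values are given for their size alone. Without that array Tbr1 went from -1.34 to -0.40, Vxn from -1.06 to -0.04, Slc17a7 from -1.03 to 0.03, Neurod6 from -0.82 to 0.17 and Neurod2 from -0.25 to 0.35. Nrn1 was -0.95 and Cck -0.77 without it, and all 6 settings that left out a single control or chronic array kept Nrn1 at or below -0.95 and Cck at or below -0.77. Without control 2, its lowest control, Nrn1 was -2.09 (limma, adjusted p = 0.0768, the lowest over its 18 alternatives, where the highest was 0.9998). With the mean of 45 other cortical genes as a covariate Nrn1 was -1.05, Cck -0.73, Neurod1 -0.57, Tbr1 -0.27 and Slc17a7 0.16. That mean followed the 9 genes only in part. On chronic 2 it was -0.01, where the mean of the 9 centred genes was -0.63. Of the 46 tested genes of the cortical lists, 19 had control 1, acute 1 and acute 2 as their highest arrays. What the differences left under the covariate come from was not tested. Control 3, high in Nrn1, was also the array highest in the thalamus and septum list. Without control 3 and acute 3, the arrays high in that list and in choroid plexus genes, Nrn1 was -1.21 and Cck -1.29.

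**Figure D4:**
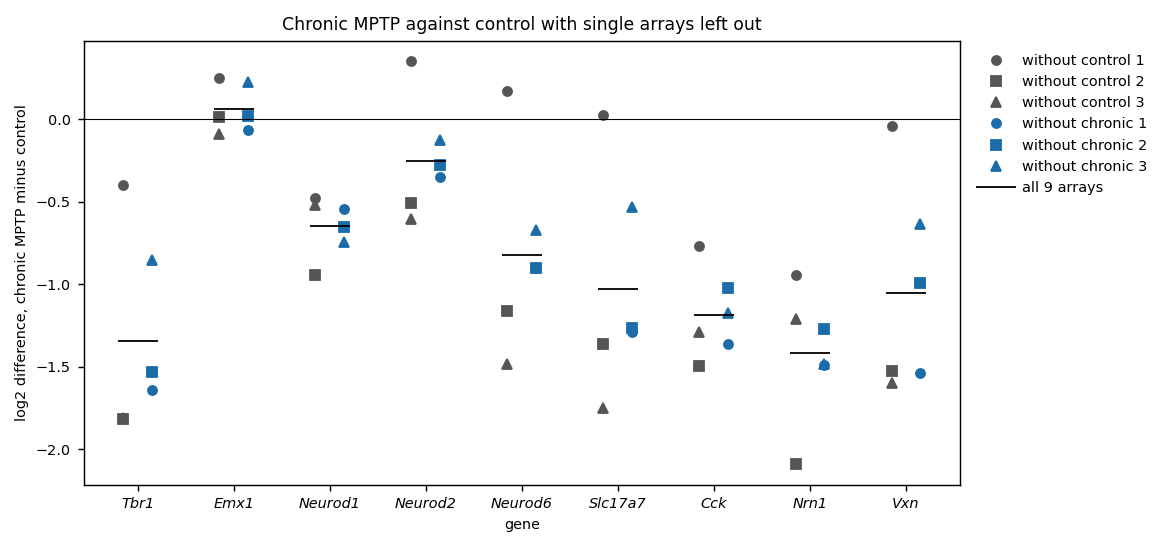
Log2 difference of chronic MPTP minus control (y axis) for each gene (x axis), over all arrays (black bars) and with 1 control array (grey) or 1 chronic array (blue) left out. Leaving out control 1 brings Tbr1, Neurod2, Neurod6, Slc17a7 and Vxn to between -0.40 and 0.35, while Nrn1 and Cck stay at -0.95 and -0.77.

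Against the acute group, all 9 genes were lower after chronic MPTP. Slc17a7 differed by -1.82 ± 1.06, Tbr1 by -1.75 ± 0.96, Nrn1 by -1.66 ± 0.51, Vxn by -1.58 ± 0.95, Cck by -1.52 ± 0.46 and Neurod6 by -1.17 ± 0.91. Neurod2, Neurod1 and Emx1 differed by -0.55, -0.31 and -0.27. In limma 0 of the 8 tested genes passed (adjusted p from 0.877 to 0.893), as did 0.0122% of all probe sets, and 2, Nrn1 and Cck, had an unadjusted p under 0.05 in the lower direction, against 2.76% of all in that direction and 2.36% in the other. All 8 lay below 0, where 53.9% of all did and 46.1% lay above. In the same 2 genes the chronic arrays lay below the acute arrays without overlap, as in 5.01% of all probe sets, with 3.61% higher without overlap. With the replicate number as a block 6 of the 8 (Cck, Nrn1, Vxn, Slc17a7, Tbr1 and Emx1) had an unadjusted p under 0.05, as did 2278 of all 16335 probe sets in either direction, and 0 passed (lowest adjusted p = 0.246). Without acute 3 the number was 6, with 976 of all probe sets and a lowest adjusted p of 0.777 in limma. Acute 3 was the lowest acute array in all 8 tested genes. Leaving it out must therefore lower each difference, and nothing is read from that number. Without the 3 arrays high in cortical genes acute 3 was the only acute array, and Tbr1 was 0.20, Slc17a7 0.29, Neurod6 0.68, Nrn1 -1.03, Cck -0.57 and Neurod1 -0.40. The 2 acute arrays left out were picked for being high in the 8 tested genes. The upward move of those genes follows from the choice, and the signs carry no information. Neurod1, which did not share these highest arrays, went the other way, from -0.31 to -0.40. With the mean of 45 other cortical genes as a covariate Nrn1 was -1.18, Cck -0.93, Tbr1 -0.36 and Slc17a7 -0.28. Each group enters 2 of the 3 comparisons, which are therefore not independent of each other.

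**Figure D5:**
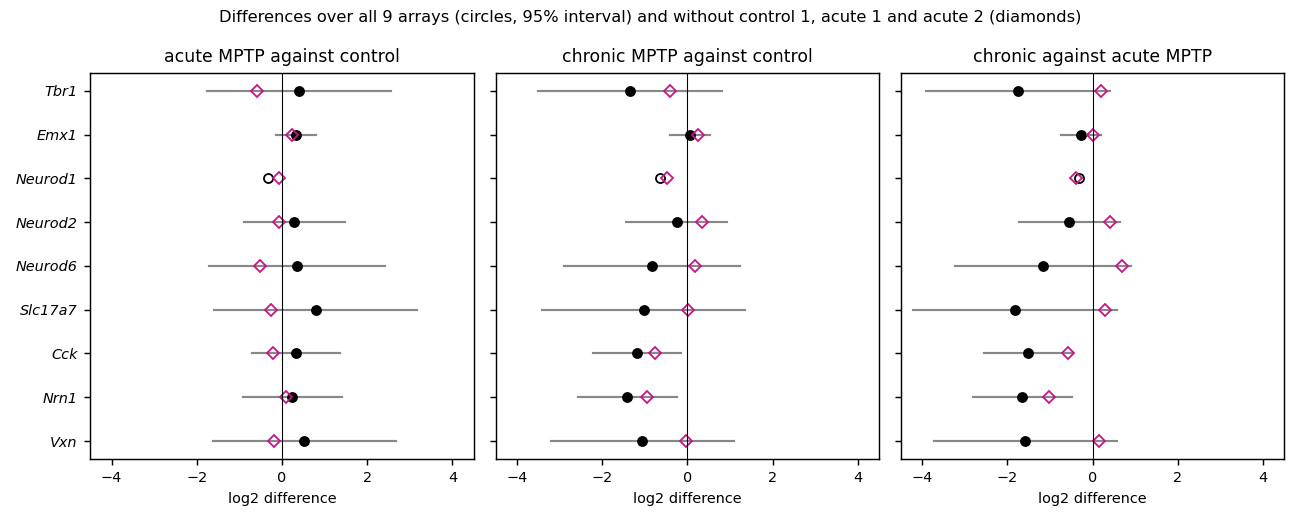
Log2 difference of each gene in the 3 comparisons, over all 9 arrays (circles with 95% intervals; open circles for Neurod1, which the filter removed) and without control 1, acute 1 and acute 2 (open diamonds). In chronic against acute MPTP the diamonds of Tbr1, Slc17a7 and Neurod6 lie above 0, at 0.20, 0.29 and 0.68, and those of Nrn1 and Cck below it, at -1.03 and -0.57; the arrays left out were picked for high values of these genes, which fixes the direction of that move.

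Of the tested genes of the other 16 lists, 0 passed in any comparison in limma. In chronic MPTP against control, 11 of 13 genes of layer 6 and the subplate were lower (median -0.17) and 9 of 13 of several layers (-0.20), where 53.2% of all probe sets were lower with a median of -0.01. In the upper layers 5 of 9 were lower (-0.04), in layer 5 it was 6 of 11 (-0.00) and in the claustrum and amygdala list 6 of 6 (-0.24). Lists of other cells moved in the same comparison. Of the genes of striatal projection neurons 19 of 19 were higher (median 0.52), where 46.7% of all probe sets were. In limma 15 of the 19 had an unadjusted p under 0.05, against 2.85% of all probe sets in the higher direction. The mean of the 19 was -0.49 in control 1 and -0.44 in control 3 but 0.12 in control 2. These genes share their low arrays, so they are not 19 separate observations. Of the thalamus and septum list 13 of 14 were lower (median -0.56). In choroid plexus 9 of 11 were lower (-0.14) and among cortical interneurons 10 of 12 (-0.15). In chronic against acute MPTP the striatal genes were higher in 19 of 19 (0.23) and the choroid plexus genes lower in 11 of 11 (-0.28). Of all probe sets 46.1% were higher and 53.9% lower there. The part of these tissues in the differences of the 9 genes was not tested. In acute MPTP against control 19 of 19 striatal genes were higher (median 0.29) and 11 of 14 of thalamus and septum lower (-0.39). Of all probe sets 51.5% were higher and 48.4% lower in that comparison. The medians of the cortical and claustrum lists were 0.03 for layer 6, 0.21 for several layers, -0.03 for the upper layers, 0.03 for layer 5 and 0.22 for the claustrum list.

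Of the genes outside the 9, the 12 whose profile over the 9 arrays was most like the mean of the 9 centred profiles had a Pearson r from 0.969 to 0.993. By that measure Tbr1 itself had 0.989, Vxn 0.982 and Slc17a7 0.973, and Nrn1 and Emx1 had 0.812 and 0.796. These genes are themselves part of that mean, in which genes of wide range weigh most. Their r is therefore not compared with that of genes outside the 9. The points are 9 arrays that fall into 3 high and 6 lower ones, and r is given as a description with no test. The most alike was Tmem178, an endoplasmic reticulum membrane protein, at 9.71 to 10.42 on control 1, acute 1 and acute 2 and 8.16 to 8.82 elsewhere. It was followed by Prss23, Pgm2l1, Ipcef1, Krt80, B3galt2, Dkkl1, Scube1, Ccn3, Satb1, Myl4 and Slc30a3. Ccn3, a secreted matrix protein, had the widest range of the 12, 6.54 to 10.02, and Slc30a3, the vesicular zinc transporter of cortical glutamatergic terminals, lay at 8.74 to 9.26 on the high arrays and 7.04 to 7.92 elsewhere. The 6 most opposed were Gpr149, Dock10, Zeb1, Tacr3, Tmem47 and Usp54, with r from -0.960 to -0.942. Tacr3, the neurokinin B receptor, lay at 6.73 to 7.14 on the 3 high arrays and at 7.53 to 8.04 on the others. All 12 had the 3 arrays as their highest and all 6 as their lowest, which the choice by r brings with it. Over all probe sets 3.31% had them as their lowest, and nothing is read from that share here.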

How the data were processed

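Total RNA of 9 striatal samples was hybridised to single-colour Affymetrix arrays after labelling 200 ng with the Ambion WT Expression kit, per the labels' protocols. The deposited values are log2 intensities of probe sets; their scale was read from the values (lowest 4.27, array medians 6.85 to 6.90), and background correction, normalization and summary are not given in the sources used here. They were used as deposited. Of 28815 probe sets, 21780 had 1 gene symbol in the platform annotation, 1605 several and 5430 none; 21689 identifiers matched RefSeq (GRCm38.p6), which changed 0 symbols. Samples were grouped by title.

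The filter kept the 16335 probe sets with 1 symbol whose mean reached log2 5.89, the 25th percentile. limma 3.58.1 in R 4.3.3 fitted 1 mean per group over all 9 arrays (6 residual degrees of freedom), with eBayes, two-sided tests and Benjamini-Hochberg adjustment over all 16335. Errors are standard errors of that fit. No 2 arrays shared more than 6.34% of their values. Single genes, Neurod6 among them, did have identical values on several arrays, which the sources used here do not explain. The number of arrays limits the precision.

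The 9 genes and the 16 other gene lists (195 genes) were chosen with earlier results of these data known. For a gene with several tested probe sets the one with the highest mean was used. Named were the 9 genes, up to the 4 genes of highest mean in a list, and the 12 genes most like and the 6 least like the 9 in profile (ranges of at least 1 and 0.5). Outside that rule, Ppp1r1b and Drd1 were named as markers of the labelled tissue. Fezf2, Rprm, Cckbr, Cckar, Slc17a6 and Vip were also named outside it, with their values known.

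Replicate numbers were checked for pairing: deviations from group means correlated across probe sets between arrays of the same number, with r between 0.157 and 0.673 in the 9 such pairs and between -0.609 and 0.184 in the 18 others, so a fit with the number as a block was run beside each test. The pairing rests on the values and not on the labels. Alternatives tried were no filter, quantile normalization, a variance trend, array weights, the block, the 2 groups alone, each array left out, the arrays high in cortex or choroid plexus genes left out, and other cortical genes as a covariate. That covariate was the mean of 45 centred genes of the 4 cortical lists, with Nxph3 left out.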

Additional observations from a re-analysis of the deposited data

How the results depend on the processing

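No setting brought any of the 8 tested genes past the adjusted threshold in any comparison: the count was 0 in limma under all 18 alternatives. The medians of the 9 genes were 0.34, -1.03 and -1.52 for acute against control, chronic against control and chronic against acute MPTP. With the replicate block, whose pairing rests on the values, they are the same by design. Every group holds each replicate number, so the block can change only the errors. It changed no adjusted call in limma (lowest adjusted p = 0.98, 0.29 and 0.246). With single arrays left out the medians of the 9 genes ran from -0.019 to 0.90, from -1.36 to -0.041 and from -2.00 to -1.12.

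The 3 arrays high in cortex genes were picked on these genes' own values, so the direction of the move without them is not read. The medians were then -0.19, -0.041 and 0.15. In acute against control Tbr1 was then -0.60, Neurod6 -0.51, Slc17a7 -0.27, Neurod2 -0.062, Vxn -0.19 and Cck -0.20. In chronic against control Neurod6 was 0.17, Slc17a7 0.026 and Neurod2 0.35. In chronic against acute Tbr1 was 0.20, Neurod6 0.68, Slc17a7 0.29, Neurod2 0.42, Vxn 0.15 and Emx1 0.0051. With other cortex genes as a covariate the chronic against control and chronic against acute medians were -0.10 and -0.28; Neurod6 was 0.21 and 0.17, Neurod2 0.33 and 0.21, and Slc17a7 0.16 in the first of these. With array weights Neurod2 was 0.016 in chronic against control, and without the 2 arrays high in choroid plexus genes Emx1 was -0.089 in chronic against control. The cause was not tested.

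With 1 array left out, acute against control ran from -0.21 to 1.38 for Tbr1, -0.32 to 1.34 for Neurod6, -0.061 to 0.90 for Neurod2, -0.019 to 1.54 for Vxn, -0.43 to 0.71 for Nrn1 and -0.012 to 0.81 for Cck. Chronic against control ran from -1.48 to 0.17 for Neurod6, -1.75 to 0.026 for Slc17a7, -0.61 to 0.35 for Neurod2 and -0.089 to 0.25 for Emx1. The mean of Neurod1, 6 of the 9 arrays of Neurod6 and chronic 3 of Tbr1 lay below the filter level of 5.89, so low signal limits what can be read there.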
